A study of Mus musculus with 12 samples.

Results

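The 8 genes described here, Serpinb10, Ceacam10, AA467197, Inhba, Trp53inp2, Ankrd22, Plbd1 and Cd96, were chosen from 19938 measured genes. They were among the genes most lowered by a Myc virus in cultured mouse myeloid progenitors, with genes listed as granule protease or neutrophil granule genes left out. Where in the cell their proteins lie was not examined. The values that chose them were the differences between Myc and GFP arrays, so these differences are given as a description with no test. Each gene had 1 probe set on the array.

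RNA came from c-Kit+ bone marrow progenitors of mice that all carried CreER and had all received tamoxifen, at 5 mg a day by gavage for 3 days. The cells were infected with a retrovirus, sorted as GFP+ after 48 hours and grown for 4 more days in medium with 20% FBS and the cytokines SCF, IL-6 and IL-3 (10 ng/mL of each). Myc ko cells (Zfx fl/y CreER) and Myc wt cells (Zfx wt/y CreER) received the virus with Myc and GFP, and GFP ko cells (Zfx fl/y CreER) and GFP wt cells (Zfx wt/y CreER) the virus with GFP alone, with 3 arrays in each of the 4 groups. The labels do not give the promoter that drives CreER, the strain or age of the mice, or whether same-numbered arrays share an animal, so p-values measure the spread between these arrays.

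Array medians were 127 to 137 intensity units and the lowest values 17.7 to 18.9. Kit, which encodes the c-Kit receptor used to isolate the cells, read 691 to 1139 in Myc ko and 691 to 1281 in Myc wt, against 856 to 1499 in GFP ko and 890 to 1582 in GFP wt, and Ptprc, the common leukocyte antigen, 1255 to 2943 over the 12 arrays. The Myc probe set averaged 5046 ± 260 in Myc ko arrays and 2701 ± 145 in GFP ko arrays, and 5231 ± 343 in Myc wt arrays and 3014 ± 197 in GFP wt arrays (SD, n = 3 each), higher with the Myc virus in both genotypes. The Zfx probe set was not lower in arrays labelled ko: it averaged 1048 ± 63.2 in Myc ko and 992 ± 26.4 in Myc wt, and 1021 ± 64.9 in GFP ko and 946 ± 72.9 in GFP wt (averaged over both viruses, limma adjusted p = 0.347). Which part of Zfx its probes cover is not given in the sources used here, so ko and wt below are the submitters' labels, and every direction between them rests on those labels.

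Myc is a transcription factor that binds DNA with its partner Max, mostly at the E-box CACGTG, and raises genes for growth. It can also lower genes, among others through the partner Miz1, and in the blood system high Myc is known to hold myeloid cells back from maturing. The 8 genes have no shared pathway: they encode a secreted ligand (Inhba), surface or secreted proteins of the immunoglobulin family (Cd96, Ceacam10), an intracellular protease inhibitor (Serpinb10), a lysosomal hydrolase (Plbd1), a small mitochondrial protein (AA467197), a regulator of autophagy (Trp53inp2) and an ankyrin repeat protein (Ankrd22).

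Promoter windows of 300 bases (250 before to 50 after a transcription start, RefSeq, GRCm38.p6) were found for all 8 genes, 9 windows in all since Ceacam10 had 2 that overlap. The E-box CACGTG, which reads the same on both strands, was in 4 of the 9 windows (3 genes), against 7.15% of 32851 windows of all genes. Both Ceacam10 windows hold the same E-box, so 1 site is counted in 2 of the 4 windows. The windows that hold CACGTG are shown because Myc and Max bind these letters. For Ceacam10 the first of the 2 windows is shown, and the E-box is in capitals.
Ceacam10, chr7:24776917-24777216, plus strand: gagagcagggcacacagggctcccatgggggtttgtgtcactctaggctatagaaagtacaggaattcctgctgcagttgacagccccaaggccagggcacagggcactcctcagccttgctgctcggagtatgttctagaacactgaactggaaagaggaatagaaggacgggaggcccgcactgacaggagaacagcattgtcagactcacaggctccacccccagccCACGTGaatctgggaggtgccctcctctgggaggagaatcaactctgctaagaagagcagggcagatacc
AA467197, chr2:122637637-122637936, plus strand: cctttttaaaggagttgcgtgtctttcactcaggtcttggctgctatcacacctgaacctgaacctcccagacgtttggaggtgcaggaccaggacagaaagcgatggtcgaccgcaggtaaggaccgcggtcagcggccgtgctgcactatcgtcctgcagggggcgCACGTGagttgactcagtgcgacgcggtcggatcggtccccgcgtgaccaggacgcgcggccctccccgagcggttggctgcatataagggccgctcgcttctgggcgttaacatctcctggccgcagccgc
Plbd1, chr6:136661844-136662143, minus strand: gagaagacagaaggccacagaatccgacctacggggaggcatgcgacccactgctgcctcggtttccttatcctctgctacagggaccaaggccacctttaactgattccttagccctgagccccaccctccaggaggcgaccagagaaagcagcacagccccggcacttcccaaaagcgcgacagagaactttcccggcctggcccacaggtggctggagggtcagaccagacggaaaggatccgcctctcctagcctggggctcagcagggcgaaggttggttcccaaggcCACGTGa
The first base of the E-box lay 20 bases before the start in Ceacam10, 82 bases before it in AA467197 and at base 44 after it in Plbd1. The letters TTGCNNAA, read on either strand as a form of the C/EBP site, were in 3 of the 9 windows (Inhba, Ankrd22 and Cd96), against 10.8% of all windows. AGGCCT, the core of the Zfx site, and GAGGAAG, a PU.1 site, both searched on either strand, were in 0 of the 9 windows, against 10.3% and 13.6% of all windows. None of these motifs overlapped another in the windows. A match is a run of letters and was not tested as a bound site.

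All 8 genes had lower intensities with Myc in both genotypes, and in each genotype all 3 Myc arrays lay below all 3 GFP arrays for all 8. This follows from how they were chosen, and of all genes 9.88% were so placed in Zfx ko and 9.44% in Zfx wt. For 7 of them all 6 Myc arrays lay below all 6 GFP arrays, which 3.14% of all genes did, and Cd96 was the exception. The median log2 difference of the 8 was -1.83 in ko and -1.93 in wt, beside medians of 0.006 and 0.004 over all genes. The threshold of an adjusted p under 0.05 was passed by 4.59% of all genes as lower and 8.58% as higher with Myc in ko, and by 3.11% and 6.17% in wt. When the fit had replicate number as a block, 10.4% passed as lower and 14.5% as higher in ko, and 8.25% and 12.2% in wt. These shares are the background for the related genes and markers below, and the 8 genes are not counted against them, since this difference chose them. In order of size the 8 stood at places 4 to 42 among all falls in ko and, without Cd96 at 217, at places 7 to 17 in wt. Genes with a larger fall than Serpinb10, the first of the 8 in both genotypes, were Mcpt2, Gzmb and Npy in ko, at 22.8-fold, 10.4-fold and 10.3-fold. In wt they were Mcpt2 at 12-fold, Ppbp at 8.39-fold, Gzmb at 6.62-fold, Stfa2 at 5.54-fold, Mcpt1 and Mmp9. Of these, Ppbp, Stfa2 and Mmp9 did not pass the threshold in wt. Stfa3, Ly6g, Cxcr2 and Anpep, at 4.24-fold to 3.47-fold, stood among places 7 to 17 in wt. They did not pass the threshold there either and are not among the 8.

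**Figure D1:**
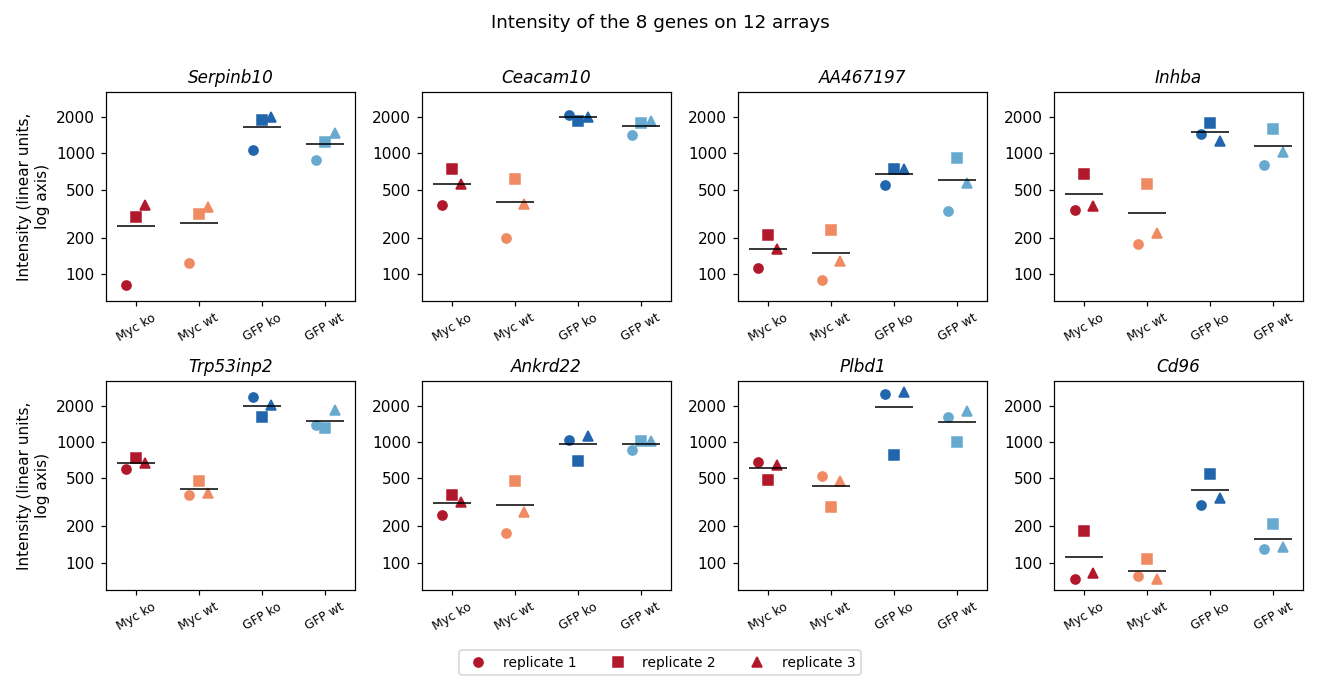
Intensity of each of the 8 genes on the 12 arrays (vertical log axis, linear intensity units), by group, with 1 point per array shaped by replicate number and a line at the group mean. Myc arrays lie below GFP arrays in both genotypes for all 8 genes, and Cd96 alone has a Myc ko array above GFP wt arrays.

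Markers of other cell types moved with the same virus. Of 17 measured neutrophil markers 12 were past the threshold as lower with Myc in ko and 8 in wt (17 and 16 with the block) and 0 as higher, and their summed intensity was 51593 to 59779 in Myc ko against 85095 to 106113 in GFP ko, and 44372 to 61815 in Myc wt against 87654 to 107843 in GFP wt. Of 14 mast cell and basophil markers 6 were lower in each genotype and 1 was higher in wt, with sums of 6410 to 10271 in Myc ko against 14193 to 20166 in GFP ko, and 11937 to 26944 in Myc wt against 24714 to 31866 in GFP wt. Monocyte and macrophage markers had 1 of 12 lower in each genotype (5 in ko and 4 in wt with the block), with sums of 8832 to 14173 in Myc ko, 12721 to 17481 in GFP ko, 6276 to 13307 in Myc wt and 7808 to 14168 in GFP wt. Erythroid markers were higher with Myc in 5 of 8 cases in ko and 1 of 8 in wt (7 and 3 with the block). Of 15 T and NK cell markers, 7 megakaryocyte markers and 11 dendritic cell markers, 0 passed in either genotype, and with the block 3 megakaryocyte genes in ko and 2 in wt, and 1 T and NK cell gene in ko, were lower. On this array no marker is at 0, since the lowest intensity is 17.7. The part of these cells in the values of the 8 genes was not tested, and in these bulk samples fewer cells of a type and less RNA per cell cannot be told apart.

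**Figure D2:**
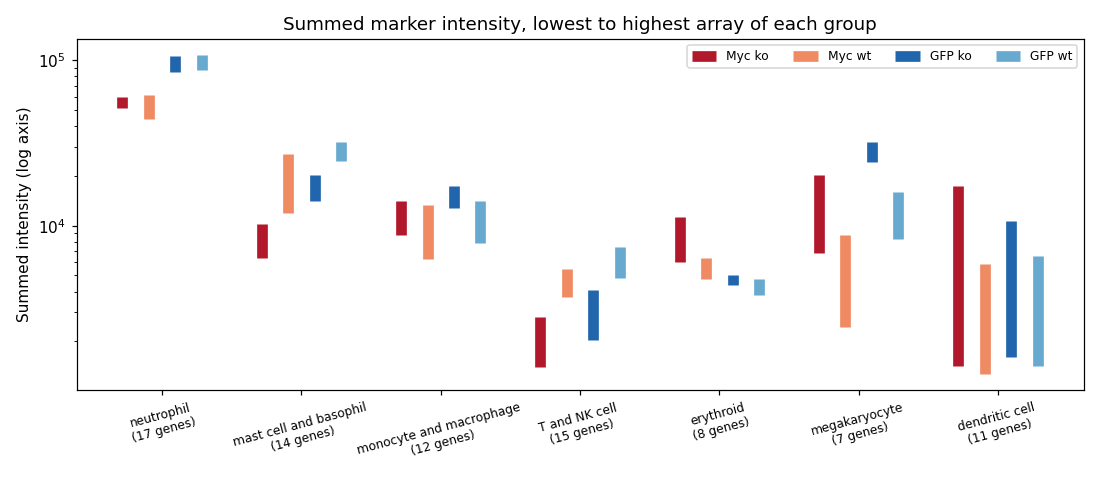
Summed intensity of each list of cell type markers (vertical log axis), drawn as a bar from the lowest to the highest of the 3 arrays in each group. Neutrophil sums of Myc arrays, at most 61815, lie below those of GFP arrays, at least 85095.

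Inhba encodes the beta A chain of inhibins, and 2 such chains form activin A, a ligand of the TGF-beta family. Its intensity was 336, 673 and 364 in Myc ko arrays 1, 2 and 3, against 1453, 1781 and 1274 in GFP ko arrays. In wt it was 178, 557 and 217 in Myc arrays and 805, 1595 and 1018 in GFP arrays. The array with number 2 was the highest in all 4 groups. Inhba was 3.42-fold lower with Myc in ko (log2 -1.78 ± 0.42, SE) and 3.93-fold lower in wt (log2 -1.97 ± 0.42).

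The genes that encode Inhba's relatives and inhibitors showed few changes with Myc, while some receptor and Smad genes were lower. Of 12 measured activin ligand and inhibitor genes 0 passed the threshold with Myc in either genotype (in ko, 1 higher and 1 lower with the block). Among 13 receptor, Smad and related genes 3 fell in ko and 2 in wt, and 0 rose (4 and 5 fell with the block). Their median log2 difference was -0.20 in ko and -0.11 in wt. Tgfbr2, a receptor for TGF-beta, fell 1.79-fold in ko (limma adjusted p = 0.0085) and 1.56-fold in wt (adjusted p = 0.0359). Ski, which holds back Smad proteins, fell 1.43-fold in ko (adjusted p = 0.00264) and 1.26-fold in wt (adjusted p = 0.0215). Tgfbr1, the signalling partner of Tgfbr2, fell 1.53-fold in ko (adjusted p = 0.0391).

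Cd96 encodes a receptor known from T and NK cells that binds the poliovirus receptor Pvr on other cells. Its intensity was 73.1, 182 and 82.2 in Myc ko arrays, against 304, 546 and 344 in GFP ko arrays. In wt it was 78.1, 107 and 72.9 in Myc arrays, against 130, 210 and 136 in GFP arrays. All Myc wt arrays, and Myc ko arrays 1 and 3, read below the array medians of 127 to 137. GFP wt array 1, at 130, was also below its own median of 135, and GFP wt array 3, at 136, was near its own median of 132. Whether intensities this low make the folds smaller was not tested. Within each genotype the groups did not overlap, but Myc ko array 2 lay above GFP wt arrays 1 and 3. Cd96 was 3.74-fold lower with Myc in ko (log2 -1.90 ± 0.35) and 1.82-fold lower in wt (log2 -0.87 ± 0.35). The ko effect minus the wt effect was -1.04 ± 0.49 on the log2 scale, which is given with no test because the ko fall is what placed Cd96 among the 8.

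Of 9 measured genes for receptors and ligands of the Cd96 family, 1 fell with Myc in ko and 0 in wt (2 each with the block), and 0 rose. The gene was Cd226, a receptor that competes with Cd96 for Pvr, at 2.42-fold lower in ko (limma adjusted p = 0.0121). In wt Cd226 was 1.95-fold lower (adjusted p = 0.0518, and 0.000418 with the block). The list's median log2 difference was -0.05 in ko and -0.02 in wt.

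Ceacam10 encodes a small member of the carcinoembryonic antigen family. It had intensities of 369, 739 and 561 in Myc ko arrays, against 2077, 1861 and 2008 in GFP ko arrays. The wt values were 198, 606 and 380 in Myc arrays and 1411, 1774 and 1857 in GFP arrays. Every Myc array lay below every GFP array, and Myc arrays with number 1 were the lowest in both genotypes. Ceacam10 was 3.70-fold lower in ko (log2 -1.89 ± 0.35) and 4.67-fold lower in wt (log2 -2.22 ± 0.35). Of the other 14 measured Ceacam genes 2 fell in each genotype, with or without the block, and the family's median was 0.01 in ko and -0.03 in wt. Ceacam1, an adhesion receptor, fell 1.70-fold in ko (limma adjusted p = 0.0132) and 1.60-fold in wt (adjusted p = 0.03). Ceacam16, known from the inner ear, fell 1.26-fold in ko (adjusted p = 0.0192) and 1.27-fold in wt (adjusted p = 0.024).

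Serpinb10 encodes a clade B serpin, an inhibitor of serine proteases that stays inside the cell and is known from myeloid cells. It had the largest fall of the 8 with Myc in both genotypes. Its intensity was 80, 296 and 369 in Myc ko arrays, against 1067, 1881 and 1983 in GFP ko arrays. In wt it was 124, 314 and 356 in Myc arrays, against 876, 1247 and 1483 in GFP arrays. In all 4 groups array 1 was the lowest and array 3 the highest. Serpinb10 was 7.70-fold lower in ko (log2 -2.94 ± 0.57) and 4.89-fold lower in wt (log2 -2.29 ± 0.57), and the ko value was -2.26 without Myc ko array 1, the array with the lowest intensity. Between same-numbered arrays the fold ran from 5.38 to 13.3 in ko and from 3.97 to 7.08 in wt. Among 23 other measured clade B serpins 1 fell in ko and 0 in wt (3 and 1 with the block), and the medians were -0.02 and -0.04. That gene was Serpinb1a, an inhibitor of neutrophil elastase, which fell 1.76-fold in ko (limma adjusted p = 0.0116). It was 1.47-fold lower in wt (adjusted p = 0.0765, and 0.00698 with the block).

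Plbd1 encodes a phospholipase B-like hydrolase, which in humans was purified from neutrophils. Intensities were 685, 490 and 647 in Myc ko arrays and 2530, 776 and 2589 in GFP ko arrays. They were 522, 290 and 479 in Myc wt arrays and 1604, 1007 and 1829 in GFP wt arrays. Array 2 was the lowest in all 4 groups, and GFP ko array 2 came closest to the Myc arrays. Plbd1 was 2.86-fold lower in ko (log2 -1.52 ± 0.44), with 1.58-fold between arrays numbered 2 and 4.00-fold between arrays numbered 3. In wt it was 3.44-fold lower (log2 -1.78 ± 0.44), and the same-numbered folds ran from 3.08 to 3.82. Lysosomal lipid hydrolase genes had medians of -0.33 in ko and -0.31 in wt, and of 14 measured 1 fell in ko and 2 in wt (8 and 6 with the block) and 0 rose. Ppt1, which removes fatty acids from proteins, fell 1.41-fold in ko (limma adjusted p = 0.0149) and 1.43-fold in wt (adjusted p = 0.0164). Smpd1, the acid sphingomyelinase, fell 1.38-fold in wt (adjusted p = 0.0485).

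AA467197, also called Nmes1, encodes a small protein related to Ndufa4, a subunit of cytochrome c oxidase. The gene's span also holds the microRNA mir-147, whose mature 5p form (RefSeq, GRCm38.p6, chr2:122640814-122640837, plus strand) is shown with its seed, bases 2 to 8, in capitals, because it lies within the gene whose probe set is described here. No level of the microRNA was analysed here.
mmu-miR-147-5p: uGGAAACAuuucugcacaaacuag
AA467197 had intensities of 112, 210 and 161 in Myc ko arrays and 540, 746 and 741 in GFP ko arrays. In wt the values were 89.6, 231 and 128 in Myc arrays and 331, 915 and 568 in GFP arrays. Array 1 was the lowest and array 2 the highest in all 4 groups, so the groups spread in the same order. The gene was 4.28-fold lower in ko (log2 -2.10 ± 0.41) and 4.02-fold lower in wt (log2 -2.01 ± 0.41), and same-numbered folds ran from 3.55 to 4.82 in ko and from 3.70 to 4.45 in wt. By contrast with these folds, of 17 measured genes for Ndufa4, its relative Ndufa4l2 and cytochrome c oxidase subunits 0 passed the threshold in either genotype, also with the block, and the medians were 0.06 in ko and 0.05 in wt. The lowest p in both belonged to Cox5b, at log2 0.15 in ko (limma adjusted p = 0.149) and 0.13 in wt (adjusted p = 0.258).

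Trp53inp2 encodes a nuclear protein that moves to autophagosomes when cells starve, binds proteins of the LC3 family there and also acts with the thyroid hormone receptor. Its intensity was 596, 740 and 673 in Myc ko arrays, against 2352, 1628 and 2044 in GFP ko arrays. Wt arrays had 367, 474 and 379 with Myc, against 1400, 1304 and 1833 with GFP. Myc and GFP arrays lay far apart in both genotypes, and the standard error was the smallest of the 8. Trp53inp2 was 2.98-fold lower in ko (log2 -1.57 ± 0.17) and 3.70-fold lower in wt (log2 -1.89 ± 0.17).

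Among 25 measured autophagy genes 5 fell and 1 rose with Myc in ko, and 6 fell and 0 rose in wt (10 down and 2 up in ko, and 9 down and 1 up in wt, with the block). The median log2 difference of the list was -0.14 in ko and -0.15 in wt. Trp53inp1, the paralog of Trp53inp2, fell 1.70-fold in ko (limma adjusted p = 0.0116). Wipi1, which marks forming autophagosomes, fell 1.57-fold in ko (adjusted p = 0.0144) and 1.47-fold in wt (adjusted p = 0.0374). Atg9a, a membrane protein that carries lipid to them, fell 1.47-fold in ko (adjusted p = 0.00411) and 1.47-fold in wt (adjusted p = 0.0058). Map1lc3a, one of the LC3 genes, fell 1.32-fold in wt (adjusted p = 0.0356).

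Ankrd22 encodes a short protein with ankyrin repeats. Intensities were 250, 363 and 321 in Myc ko arrays and 1048, 704 and 1123 in GFP ko arrays. In wt they were 175, 473 and 263 in Myc arrays and 859, 1030 and 1022 in GFP arrays. No replicate number was the highest or the lowest throughout. Ankrd22 was 3.05-fold lower in ko (log2 -1.61 ± 0.31) and 3.46-fold lower in wt (log2 -1.79 ± 0.31), with same-numbered folds from 1.94 to 4.19 in ko and from 2.18 to 4.89 in wt.

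**Figure D3:**
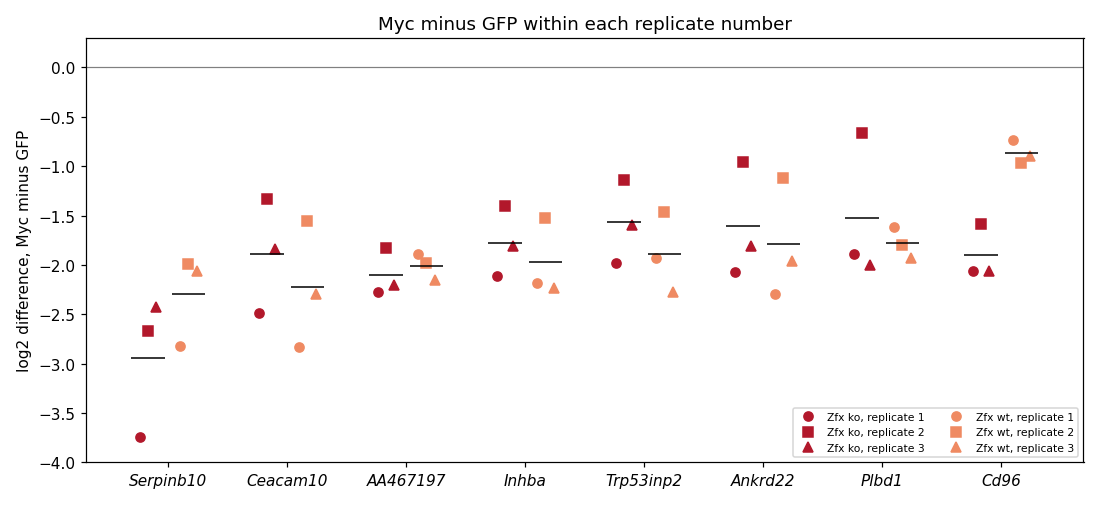
The log2 difference Myc minus GFP between arrays of the same replicate number, for each of the 8 genes in Zfx ko and Zfx wt, with a line at the fitted difference. All 24 differences in ko and all 24 in wt lie below 0, from -3.74 (Serpinb10, ko, number 1) to -0.66 (Plbd1, ko, number 2). These signs follow from how the genes were chosen, since in each genotype all Myc arrays lie below all GFP arrays.

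In 6 of the 8 genes the group means ran in the order GFP ko, GFP wt, Myc ko, Myc wt from high to low. Serpinb10 had its lowest mean in Myc ko and Ankrd22 its highest in GFP wt. GFP ko and GFP wt overlapped except in Ceacam10 and Cd96, and the 2 Myc groups overlapped except in Trp53inp2. In Ceacam10 the lowest GFP ko array, at 1861, was barely above the highest GFP wt array, at 1857. How many of all genes have this order of means, or ko and wt arrays free of overlap, was not counted, so these places are only a description. The middle step, between a GFP and a Myc group, was free of overlap in every gene but Cd96. Arrays of 1 number often held the same place: the same number was the highest in all 4 groups in 4 of the 8 genes, against 22.6% of all genes, and the lowest in 3 of 8, against 26.5%. It was not 1 number for all, since number 3 was highest for Serpinb10 and number 2 for AA467197, Inhba and Cd96.

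The comparison of arrays labelled Zfx ko with Zfx wt, averaged over both viruses, did not enter the choice of the 8 genes. With equal group sizes its estimate is uncorrelated with the Myc difference in each genotype, although both use the same estimate of the spread, and it is therefore tested. Over all genes 4.73% were past the threshold as higher and 7.34% as lower in ko. Of the 8 genes 1 passed, Trp53inp2, which rose 1.48-fold in ko (95% interval 1.24 to 1.77, limma adjusted p = 0.0102). It was higher in ko in 6 of 6 same-numbered comparisons. With Myc its ko arrays, at 596 to 740, did not overlap with its wt arrays, at 367 to 474. With GFP they overlapped, at 1628 to 2352 in ko and 1304 to 1833 in wt. Values for 1 virus alone draw on arrays that chose the 8 genes and are given here and below as a description.

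Cd96 had the largest difference of the 8, at 1.74-fold higher in ko (95% interval 1.19 to 2.54), and missed the threshold (limma adjusted p = 0.0657). The block brought it past the threshold (adjusted p = 0.000241), and so did leaving out Myc ko array 1 (adjusted p = 0.0426) or GFP wt array 2 (adjusted p = 0.0497), array weights (adjusted p = 0.0204) and the filter at the median intensity (adjusted p = 0.0417). Array weights or a left-out array end the balance of the groups, and those fits draw in part on the values that chose the 8. The intensity filter used each gene's mean over all 12 arrays. Cd96 averaged 398 in GFP ko, against 159 in GFP wt, 112 in Myc ko and 86.2 in Myc wt. Its place above the filter thus draws on the group where it was highest. The difference of Cd96 was 0.28 ± 0.35 with Myc and 1.32 ± 0.35 with GFP (log2, SE), and it was higher in ko in 5 of 6 same-numbered comparisons. Inhba was 1.46-fold higher in ko (0.921 to 2.31, adjusted p = 0.347), in 6 of 6 comparisons, and passed with the block (adjusted p = 0.0168). With the block 3 of the 8 were thus past the threshold as higher and 0 as lower, against 10.5% and 12.5% of all genes.

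The other 5 genes passed neither fit. Ceacam10 was 1.33-fold higher in ko (0.908 to 1.96, limma adjusted p = 0.409), in 6 of 6 comparisons. Plbd1 stood at 1.31-fold (0.819 to 2.11, adjusted p = 0.575) and AA467197 at 1.16-fold (0.746 to 1.81, adjusted p = 0.798). Serpinb10 at 1.08-fold (0.58 to 1.99, adjusted p = 0.949) and Ankrd22 at 1.03-fold (0.737 to 1.45, adjusted p = 0.959) were the closest to no difference, and their intervals still allow changes in either direction. The estimate was above 0 in 8 of the 8, with a median log2 of 0.40, beside 48.7% of all genes and a median of -0.003. These 8 estimates share arrays and are not independent of each other. Being higher in ko in 6 of 6 same-numbered comparisons held for 3 of the 8 and for 11.6% of all genes.

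**Figure D4:**
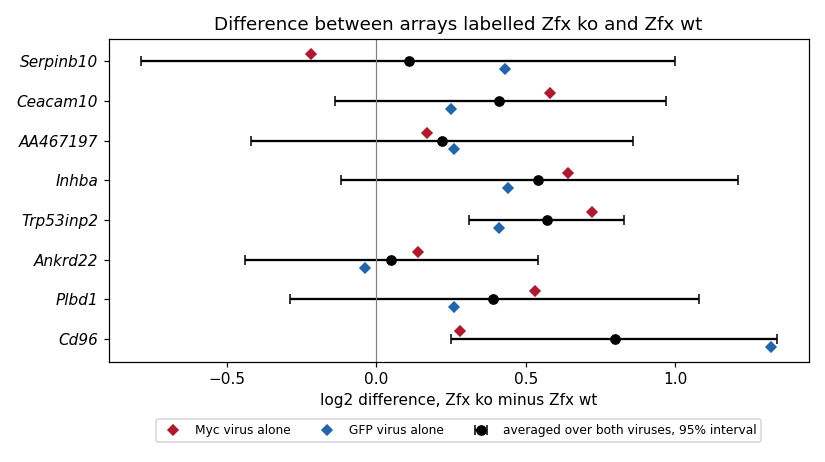
Log2 difference of arrays labelled Zfx ko minus Zfx wt (horizontal axis) for each of the 8 genes, with the average over both viruses and its 95% interval in black, and the Myc virus and GFP virus alone as coloured diamonds. In this fit without the block, the intervals of Trp53inp2 and Cd96 lie above 0, and those of the other 6 genes include it.

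Markers of other cell types also differed between these labels. Averaged over both viruses, 6 of 7 measured megakaryocyte markers and 5 of 8 erythroid markers were higher in ko, 6 of 14 mast cell and basophil markers were lower (10 with the block), and 0 in these lists went the other way. Megakaryocyte sums were 6802 to 20341 in Myc ko against 2430 to 8747 in Myc wt, and 24160 to 31936 in GFP ko against 8336 to 15994 in GFP wt. Erythroid sums were 6011 to 11252 in Myc ko against 4766 to 6376 in Myc wt, and 4392 to 5062 in GFP ko against 3829 to 4778 in GFP wt. The T and NK cell list, where Cd96 is best known, had a median log2 difference of -0.01, and its sums were 1395 to 2811 in Myc ko against 3699 to 5477 in Myc wt, and 2029 to 4095 in GFP ko against 4799 to 7461 in GFP wt. Of its 15 genes 1 passed, Nkg7, a granule gene of NK cells, which fell 2.98-fold in ko (limma adjusted p = 0.00886). Nkg7 alone read 608 to 1932 in Myc ko against 2880 to 4624 in Myc wt, and 1235 to 3212 in GFP ko against 3979 to 6627 in GFP wt, so the lower sums in ko rest on this gene. Among 17 neutrophil markers 3 were higher and 1 lower in ko, and 0 of 12 monocyte and macrophage and 0 of 11 dendritic cell markers passed (4 higher and 2 lower, and 1 higher, with the block). The part of these cells in the differences of Trp53inp2, Cd96 and Inhba was not tested.

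Some genes related to the 8 also differed between the labels, in both directions. Of all genes 4.73% passed as higher in ko and 7.34% as lower (10.5% and 12.5% with the block). The counts below are a description beside these shares, with no test of the lists. Pvr, the ligand of Cd96, fell 1.51-fold in ko (limma adjusted p = 0.0145), and Nectin3, of the same ligand family, rose 1.18-fold (adjusted p = 0.0391), the only 2 of 9 past the threshold without the block. Fst, which encodes the activin antagonist follistatin, rose 1.43-fold (adjusted p = 0.0376), 1 of 12 activin ligand and inhibitor genes. Of the 13 receptor and Smad genes 2 rose and 2 fell (2 and 5 with the block): Skil, a repressor of Smads, rose 1.46-fold (adjusted p = 0.0047), the activin receptor gene Acvr2a rose 1.27-fold (adjusted p = 0.0052) and Smad4 fell 1.22-fold (adjusted p = 0.00424). Autophagy genes had 2 up and 4 down of 25 (4 and 5 with the block). Ulk1, the kinase that starts autophagy, fell 1.70-fold (adjusted p = 0.0133), Atg12 fell 1.34-fold (adjusted p = 0.0313) and Wipi1 fell 1.31-fold (adjusted p = 0.0323). Smpd1 fell 1.31-fold (adjusted p = 0.0183), the 1 of 14 lysosomal genes past the threshold (2 up and 1 down with the block). Serpinb6b rose 2.16-fold (adjusted p = 0.0193), 1 of 23 serpins (5 up and 1 down with the block). Cox6b2 and Cox7a1, subunits of cytochrome c oxidase, rose 1.41-fold (adjusted p = 0.0118) and 1.33-fold (adjusted p = 0.00121), with 0 of 17 lower (1 with the block). No Ceacam gene passed out of 14, and the lowest p was that of Ceacam16 at log2 -0.18 (adjusted p = 0.0709, and 0.049 with the block).

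Likeness was measured as the root mean square difference over the 12 arrays between log2 values centred on each gene's mean, in log2 units, where a smaller value is more alike. The Myc difference that chose the 8 is part of each profile, so the nearest genes are a description. Inhba, AA467197 and Ceacam10 were among each other's 3 nearest genes, at 0.30 to 0.32, beside medians of 1.11 to 1.15 to all genes. Ankrd22 stood at 0.31 from Ceacam10. The nearest gene to both Trp53inp2 (0.24) and Ankrd22 (0.23) was Rasgrp4, a Ras activator of myeloid cells, and Cd33, a receptor for sialic acid, was among the 3 nearest for both, at 0.31 and 0.30. Siglece, of the same receptor family, lay at 0.26 from Trp53inp2, and Ipcef1 at 0.25 from Ankrd22. Plbd1 lay nearest to the inhibitory receptor gene Pirb (0.24), then Tmem71 (0.33) and Lilra6 (0.38). Serpinb10 stood farther from its nearest genes, with AA467197 at 0.58, Ceacam10 at 0.60 and Tph1, which starts serotonin synthesis, at 0.69. Its median to all genes was also larger, at 1.48. Cd96, like Trp53inp2, Ankrd22 and Plbd1, lay nearest to genes outside the 8, namely Vldlr (0.33), the inflammatory caspase gene Casp4 (0.35) and Gcnt2 (0.37). S100a6, a calcium-binding protein gene, lay at 0.36 from Inhba, and Ipcef1 at 0.39 from AA467197.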

How the data were processed

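Expression was measured on 12 arrays, 3 in each of 4 groups taken from the sample titles. The deposited values are RMA intensities on a linear scale, per the submitters' processing notes and the values themselves, and the software is not given in the sources used here. Tests used log2 of the deposited intensities, with no pseudocount and no filter on dim probe sets. Of 35556 probe sets, 21789 have 1 gene symbol in the platform table, 1621 several and 12146 are not listed. The probe set with the highest mean stood for each of 19938 genes.

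A limma model (version 3.58.1, R 4.3.3) with 1 mean per group was fitted to all 12 arrays with lmFit and eBayes, Benjamini-Hochberg adjusted over all genes. It gives every adjusted p not said to come from a block. The fit was also tried on simulated data in which arrays varied independently. That trial had no shared deviations of same-numbered arrays, described below, and cannot show how the fit handles them. Fold intervals are 95% intervals and are not adjusted. The number of arrays limits the precision. The 8 genes, the gene lists and the markers were chosen with earlier results of these data known. From each list up to 3 genes past the threshold are named, or else the one with the lowest p, and for each of the 8 genes the 3 most alike, with predicted and small RNA genes unnamed.

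Same-numbered arrays of different groups deviated together from their group means (r from 0.40 to 0.85 over 18 pairs), so the numbers were read as pairing the arrays. This comes from the values, and the labels give only the numbers. The main fit and its intervals have no term for this pairing, and only the fit with the replicate block does. Within groups log2 values correlated at 0.988 to 0.996 over all 19938 genes, and 0 pairs of arrays were identical. Alternatives were leaving out each array, the replicate block, array weights, centring on medians, quantile normalization once more, a robust prior with trend, all probe sets, and a filter at the median intensity.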

Additional observations from a re-analysis of the deposited data

How the results depend on the processing

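Counts of genes past the threshold moved by more than 1.5 times under some settings. With the replicate number as a block, 4583 genes passed for Zfx averaged over both viruses (2406 without it), 4959 for Myc in ko (2626) and 4082 for Myc in wt (1851), and array weights gave 3209 for Myc in wt. Related genes past the threshold numbered 34, 33 and 26 with the block, against 17, 14 and 12 without it. Without 1 array the counts ran from 1792 to 2272 for Zfx, from 1395 to 2555 for Myc in ko and from 838 to 2044 for Myc in wt. Leaving out GFP ko 1 (1665) or Myc ko 3 (1395), and Myc wt 1 (1172), GFP wt 1 (1209), Myc wt 3 (859) or GFP wt 3 (838), moved them most. These alternatives have fewer arrays or another estimate of the spread.

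Of the 8 genes, 1 passed for Zfx, 3 with the block, 2 with array weights, 2 among genes above the median intensity, and 1 to 2 without 1 array. Trp53inp2 passed under all 19 alternatives (adjusted p from 0.00597 to 0.0287), and Cd96 had an adjusted p from 0.000241 to 0.145. Without 1 array, or with array weights, the groups are not balanced. Those p-values thus draw in part on the values that chose the 8. The direction for Zfx changed only in Serpinb10, from -0.13 to 0.45 without 1 array (leaving out array 1 of Myc wt gave -0.13, array 1 of GFP wt -0.0005, array 2 of Myc ko -0.03 and array 3 of Myc ko -0.11), and in Ankrd22, from -0.12 to 0.24 (array 1 of Myc wt gave -0.12, array 2 of Myc ko -0.01 and array 3 of GFP ko -0.02). The cause was not tested. Each Myc difference of the 8 kept its direction under all 19 alternatives, which follows from how the 8 were chosen. Several alternatives, the block among them, change only the estimate of the spread and leave the difference as it was. The Myc difference that moved most was that of Serpinb10 in ko (log2 -2.94, and -2.26 without Myc ko 1). Each gene has 1 probe set, so no second one could be compared.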

Other observations

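Genes next to the 8 on the chromosome, taken as the nearest measured gene on either side in RefSeq, mostly did not pass the threshold with Myc. Of 16 such neighbours 1 was past it as lower in ko and 1 in wt, and 0 as higher, beside 4.59% and 3.11% of all genes as lower. In both genotypes this was Cd177, next to Ceacam10, which encodes a surface protein of neutrophils. Its log2 difference was -1.19 in ko (limma adjusted p = 0.0259) and -1.33 in wt (adjusted p = 0.0204). Serpinb2, next to Serpinb10, differed by -1.57 in ko (adjusted p = 0.387) and -0.70 in wt (adjusted p = 0.84), and Serpinb8, on its other side, by -0.54 and -0.33 (adjusted p = 0.576 and 0.829). Between labels, Ncoa6 next to Trp53inp2 was lower in ko (log2 -0.40, adjusted p = 0.00635), opposite to Trp53inp2, and Nectin3 next to Cd96 was higher (log2 0.24, adjusted p = 0.0391).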
